A study of Mus musculus with 48 samples.

Results

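CCDC174 (coiled-coil domain-containing protein) is a protein that, in the study that made these data, was examined together with NRDE2 for its role at 5′ splice sites (5′SSs). Here the gene expression change after CCDC174 depletion in mouse embryonic stem cells (mESCs) was examined in RNA-seq, without the translation inhibitor cycloheximide (CHX). Genes entered the comparison when their mean over its 4 libraries reached 0.5 CPM (reads of the gene scaled to the library's total), and these were 14255 of the 55335 genes in the deposited table, 12677 of them protein-coding. Of the other genes, 25600 were listed at 0 in all 4 libraries and 15480 were above 0 but below the limit. The gene just inside the limit was *Pla2g12b* with a mean of 0.50012 CPM, and the gene just outside it was *Gm9800* with 0.49985.

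All 4 libraries came from male mESCs of a hybrid 129-C57BL/6 background, grown with serum, LIF and 2i, the inhibitors of MEK and GSK3 that keep the cells in the naive state. Both groups carried the genotype *Ccdc174-FKBP12F36V*, in which endogenous CCDC174 is fused to a degron, and the parental lines carry an inducible Cre recombinase in the *Rosa26* locus. *Ccdc174-dTAG* cells received 500 nM dTAG-13, which brings the fusion protein to the ubiquitin ligase machinery, for 24 h, and the WT cells had the same genotype without depletion. The study reported minor effects of this tag on expression relative to untagged cells. Each group had 2 libraries, described as independent replicates without stating whether cultures were separate. The p-values of the main comparison therefore measure only the spread between libraries of a group. That spread was estimated over all 20 RNA-seq libraries without CHX, not from these 4 alone. Whether the WT cells received a vehicle is not given in the sources used here, and untagged cells given dTAG-13 are not among the groups compared, so effects of the compound itself and of the protein loss cannot be told apart. For comparison, the same 2 groups after 4 h with 0.1 mg/ml CHX were used, and 2 experiments with *Nrde2*-KO cells. In the latter, 100 nM 4-hydroxytamoxifen for 4 d deletes the gene through Cre. Their *Nrde2*-WT controls carried the same conditional knockout and are listed without 4-hydroxytamoxifen.

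Splicing of an intron starts when U1 snRNA, the RNA of the U1 small nuclear ribonucleoprotein, pairs with the 5′SS, which spans the last bases of the exon and the first bases of the intron. Sites that pair poorly are called weak, and their use depends on additional proteins. Misspliced transcripts often carry a premature stop codon and are then degraded by nonsense-mediated decay (NMD), which requires translation and is blocked by CHX. The level of the gene's RNA, which is what this table measures, can thereby fall without a change of transcription. The table does not resolve introns or splice junctions.

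The libraries held between 32972802 and 34070425 reads in genes, which was 88.4 to 89.5% of the total by which the authors scaled. Markers of mESCs were all above the limit (8 of 8, among them *Pou5f1*, *Sox2* and *Nanog*), with a summed level of 3987 to 4342 normalised CPM in every library. Fibroblast markers summed to 6.14 to 7.79 normalised CPM, with *Col1a2*, *Col3a1*, *Postn*, *Lum* and *Dcn* below the limit. The 2 *Ccdc174-dTAG* libraries differed from each other more than the 2 WT libraries did, with a median absolute difference of 0.18 against 0.13 on the log2 scale over genes. This difference moved with base composition. In *Ccdc174-dTAG* replicate 2 relative to replicate 1, the median log2 ratio was 0.17 for protein-coding genes with exons of under 45% GC and −0.20 for those above 54% GC, against 0.04 and −0.03 between the WT libraries. Replicate 2 of *Ccdc174-dTAG* also stood apart at a few very abundant transcripts, chosen here after their values were seen. *Gm42418* was at 7849, 7066 and 7490 normalised CPM in the other libraries and at 1488 in replicate 2, and *Lars2* was at 429, 349 and 262 against 42.0. Many results are therefore given with and without this library.

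In the depleted cells the RNA of many more genes was lower than was higher. By limma, 175 genes were down-regulated and 33 up-regulated (a log2 fold change beyond −1 or 1 and p below 0.01 after Benjamini-Hochberg adjustment), which is 1.23% and 0.231% of the 14255 genes tested. Without the limit on fold change, 676 genes were lower (4.74%) and 158 higher (1.11%), and 3686 genes had an unadjusted p below 0.05. The median log2 fold change over all genes was 0.02. In all of the 208 up- or down-regulated genes both libraries of one group lay above both of the other, which was the case for 54.7% of all genes tested. All but 1 of the down-regulated genes were protein-coding, and 29 of the up-regulated genes. Without *Ccdc174-dTAG* replicate 2 there were 98 down-regulated and 21 up-regulated genes, and without WT replicate 1 there were 130 and 14. The counts at any fold fell to 311 lower and 36 higher genes without WT replicate 1, 401 and 60 without WT replicate 2, and 313 and 50 without *Ccdc174-dTAG* replicate 2.

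**Figure D1:**
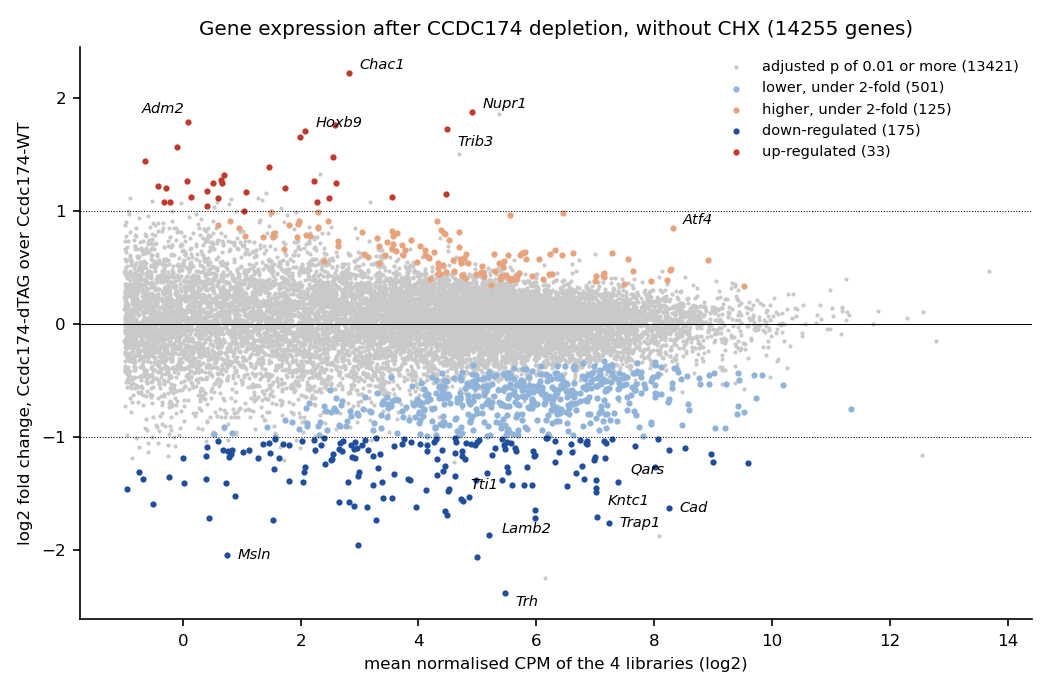
Log2 fold change of *Ccdc174-dTAG* over WT (vertical axis) against the mean normalised CPM of the 4 libraries on a log2 scale (horizontal axis), 1 point per gene tested. Blue points are the 175 down-regulated genes and red points the 33 up-regulated genes, with paler points for genes past the adjusted p of 0.01 at under 2-fold, and the blue points spread over most of the range of expression.

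The transcripts whose introns the study followed in detail were lower in the depleted cells. The 5′SSs of *Cdk2*, *Tti1* and *Dnmt1* are shown because the study named these introns, and 6 others because each has the fewest bases in common with the U1-complementary sequence in a gene among the largest decreases. Each is the last 3 bases of the exon and the first 6 of the intron, 5′ to 3′ on the gene's strand, in mm10 (GRCm38) and in transcripts of GENCODE M21. Capitals mark the bases shared with the sequence that pairs fully with U1 snRNA, CAGGTAAGT.
*Cdk2* intron 1, chr10:128704706-128704714, minus strand: CAcGTgAGT
*Tti1* intron 5, chr2:157995375-157995383, minus strand: aAGGTActg
*Dnmt1* intron 10, chr9:20932109-20932117, minus strand: aAGGcAAag
*Trap1* intron 14, chr16:4045437-4045445, minus strand: CAGGTtgac
*Itpr3* intron 52, chr17:27117923-27117931, plus strand: gAGGTcttg
*Lamb2* intron 29, chr9:108489372-108489380, plus strand: acGGTctGa
*Isyna1* intron 7, chr8:70596410-70596418, plus strand: tgtGTgcGT
*Nphs1* intron 20, chr7:30471241-30471249, plus strand: tcaGTAcGa
*Cad* intron 42, chr5:31077694-31077702, plus strand: gctGTgAGc
The *Cdk2* site shares 7 of the 9 bases and the *Tti1* and *Dnmt1* sites 5 each, the latter with GC in place of the GT at the start of almost all introns. The sites of *Itpr3*, *Lamb2*, *Isyna1*, *Nphs1* and *Cad* share 4. Among the largest decreases whose site is not shown, that of *Trh*, the largest, shares 7, that of *Ptgs1* 4 and the rest 5. A gene with more introns has more sites from which the fewest is taken. A site of 5 or fewer shared bases is not particular to these genes, since 67.5% of all protein-coding genes tested have at least 1. The letters say nothing of whether a site was misspliced.

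*Ccdc174* RNA was at 27.4 and 27.5 normalised CPM in WT and 34.1 and 36.8 in *Ccdc174-dTAG* (log2 fold change 0.37, SE 0.12, adjusted p = 0.048). It did not pass the threshold, and because dTAG-13 acts on the protein, it does not check the depletion. *Nrde2*, *Mtrex*, the helicase of the nuclear exosome, and *Eif4a3*, the helicase core of the exon junction complex, had log2 fold changes of −0.01, 0.06 and −0.04, none of which passed.

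*Tti1*, a subunit of the TTT chaperone complex of PI3K-related kinases, had 61.8 and 68.7 normalised CPM in WT and 25.15 and 27.02 in *Ccdc174-dTAG* (log2 fold change −1.31, SE 0.10, adjusted p = 7.4e-08). *Cdk2*, the kinase of S phase entry, had 104 and 111 against 62.4 and 64.7 (−0.76, SE 0.10, adjusted p = 6.1e-05). *Dnmt1*, the maintenance DNA methyltransferase, had 479 and 471 against 303 and 279 (−0.71, SE 0.09, adjusted p = 2.3e-05). All 3 were lower with no overlap of the groups, and only *Tti1* reached 2-fold. The study chose them on samples of this series, so they are not independent evidence of a direction.

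The largest decreases were found in genes of unlike function. *Trh*, which encodes the precursor of thyrotropin-releasing hormone, fell most, from 99.6 and 49.6 normalised CPM in WT to 17.3 and 10.1 (log2 fold change −2.39, SE 0.36, adjusted p = 2.4e-04). The WT libraries of *Trh* differed from each other 2-fold, and without WT replicate 1 it fell by 1.885 on the log2 scale and did not pass, with adjusted p = 0.0107.

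Genes of the cell surface and matrix were among them. *Lamb2*, the laminin β2 chain, fell from 58.0 and 57.3 to 16.8 and 14.4 normalised CPM (−1.87, SE 0.11, adjusted p = 8.5e-09). *Nphs1*, which encodes nephrin, was at 12.02 and 13.35 against 3.22 and 2.92, and *Msln*, which encodes mesothelin, at 2.69 and 3.06 against 0.564 and 0.447. The groups did not overlap in any of the 3, which the choice of these genes required. *H2-D1*, a class I histocompatibility gene, fell from 31.9 and 34.9 to 11.3 and 9.52 (−1.66). Its value is uncertain because related class I genes share sequence and only uniquely mapping reads were counted. *Itpr3*, the inositol trisphosphate receptor that releases calcium from the endoplasmic reticulum, fell from 101 and 93.2 to 31.4 and 27.2 (−1.72).

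Metabolic and mitochondrial enzymes formed another part. *Trap1*, the mitochondrial HSP90 chaperone, had the smallest adjusted p of these genes, 2.8e-10, with 231 and 233 normalised CPM in WT and 69.5 and 66.9 in *Ccdc174-dTAG* (−1.76, SE 0.08). *Cad*, the trifunctional enzyme that starts pyrimidine synthesis, fell from 477 and 438 to 171 and 127 (−1.63, SE 0.12). *Isyna1*, which makes inositol phosphate from glucose phosphate, was at 103 and 87.3 against 38.1 and 23.6 (−1.65). In *Cad* and *Isyna1* replicate 2 of *Ccdc174-dTAG* was the lower library, and without it the log2 fold changes were −1.42 and −1.31. *Ptgs1*, the constitutive cyclooxygenase, had 2.71 and 1.77 against 0.457 and 0.526 (−1.72, SE 0.28), and without WT replicate 1 its adjusted p was 0.016.

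*Kntc1*, a kinetochore subunit of the spindle checkpoint, fell from 190 and 210 to 58.3 and 63.5 (−1.71, SE 0.10, adjusted p = 8.5e-09). *Plk5*, a polo-like kinase, was at 5.13 and 4.08 against 1.26 and 1.13, and *Cttnbp2*, a cortactin-binding protein, at 14.8 and 15.2 against 4.46 and 4.21. *Npepl1*, an aminopeptidase, and *Pgghg*, a glucosidase of modified hydroxylysine, had log2 fold changes of −1.69 and −1.62. Among the 15 largest decreases shown here the fold change was between 3.08 and 5.23, and leaving out 1 library in turn lost the call of *Trh* and *Ptgs1* only, both without WT replicate 1.

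**Figure D2:**
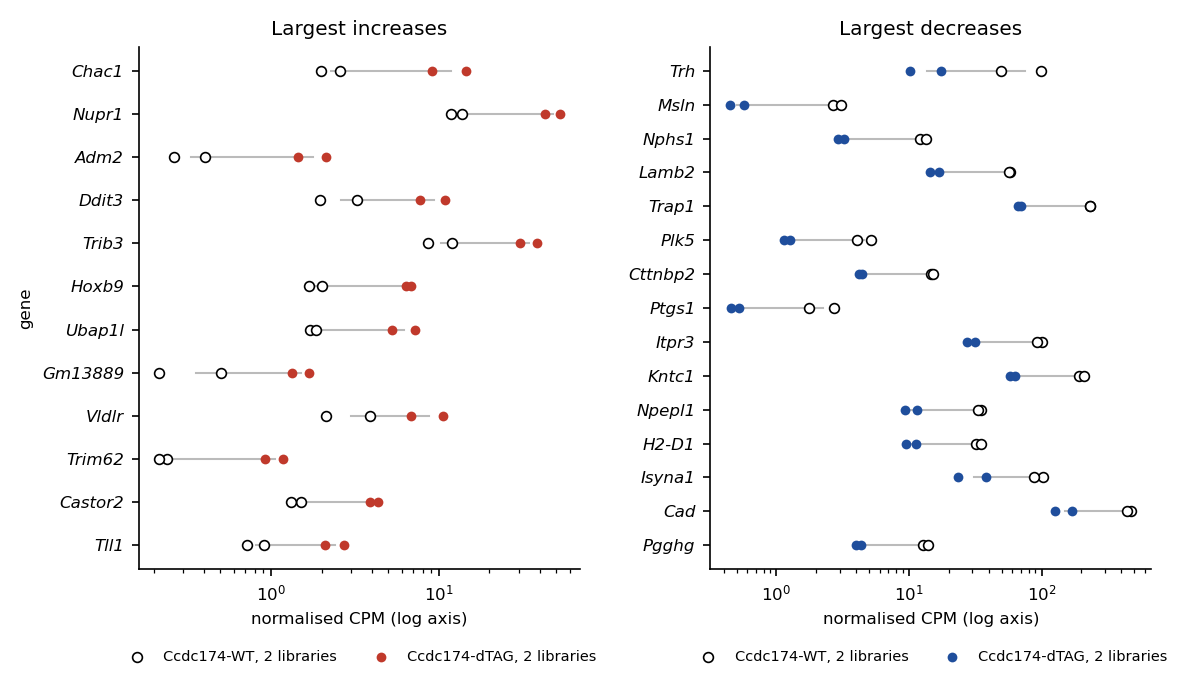
Normalised CPM on a log axis of the 12 genes with the largest increases (left) and 15 of the 16 with the largest decreases (right). They were taken from up- or down-regulated genes that reached 1 CPM in their higher group and whose groups did not overlap. Open circles are the 2 WT libraries, filled circles the 2 *Ccdc174-dTAG* libraries, and grey lines join the group means of each of the 27 genes.

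The down-regulated genes differed from all genes tested in the structure of the gene. They are those of the fit with all libraries, and this comparison was not repeated without *Ccdc174-dTAG* replicate 2. The protein-coding ones had a median of 17 introns (quartiles 11 and 29), against 8 (4 and 14) in the 12677 protein-coding genes tested, and their transcription units were no longer, with medians of 20.2 and 24.0 kb. Their introns had a median length of 369 bp against 1276 bp, and 35.4% were shorter than 200 bp against 14.4%. Their exons had a median GC content of 55.8% against 50.7%. *Cad* has 43 introns with a median of 180 bp, *Lamb2* 32 with 91 bp, *Isyna1* 9 with 85 bp and *Itpr3* 57 with 367 bp. Exceptions were *Trh* with 2 introns, *Tti1* with 7 and *Cttnbp2* with 22 introns of a median of 2555 bp. The 29 protein-coding up-regulated genes had a median of 5 introns, and 3 of them had none.

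Read over all protein-coding genes, the share with lower RNA at any fold rose with the number of introns. It was 0.885% of 339 genes without introns, 1.19% with 1 to 4, 3.33% with 5 to 9, 6.38% with 10 to 19 and 15.9% of 1708 genes with 20 or more. The share of down-regulated genes rose from 0.295 to 4.45%. With the number of introns the median level in WT rose too, from 5.50 to 47.8 normalised CPM, and a change of a given size is called more easily at a higher level. The median log2 fold change, which does not depend on calls, was 0.09, 0.06, 0.05, 0.00 and −0.11 in these 5 bands. Without *Ccdc174-dTAG* replicate 2 the shares were 0, 0.345, 1.32, 2.85 and 8.61%, smaller but in the same order. The median of the genes without introns was 0.17 without *Ccdc174-dTAG* replicate 2 and −0.06 without replicate 1, so that its sign rested on replicate 1, whereas the median of the last band was −0.12 and −0.11.

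The share also fell with the length of the introns. Among genes whose median intron was under 300 bp it was 16.4%, followed by 8.04, 6.12, 3.94 and 2.10% in the bands of 300 to 600, 600 to 1000, 1000 to 2000 and over 2000 bp. Genes with both features stood out, since 285 of 1296 genes (21.99%) with 10 or more introns and a median intron under 600 bp were lower. The share was 5.41% with as many but longer introns, 3.93% with fewer short introns and 1.93% with fewer long introns. Without *Ccdc174-dTAG* replicate 2 these 4 shares were 11.1, 2.63, 1.69 and 0.655%. Genes with short introns are rich in GC, with a median of 56.4% in exons in the shortest band against 48.1% in the longest, and GC content moved with the difference between the *Ccdc174-dTAG* replicates. Their part in the relation to intron length was not tested. Without *Ccdc174-dTAG* replicate 2 the shares in the 5 bands were 8.44, 3.57, 3.03, 1.72 and 0.818%. With a smooth trend over exon GC content removed from the log2 values of each library, a setting chosen after the data were seen, they were 16.3, 8.19, 6.73, 5.21 and 2.94%. Among genes of over 54% GC, 15.0% of those with a median intron under 600 bp were lower and 4.34% of those with longer introns, and without *Ccdc174-dTAG* replicate 2 the shares were 7.30 and 1.73%. In the bands of 51 to 54, 48 to 51, 45 to 48 and under 45% GC, the shares with all libraries were 10.6, 6.05, 3.54 and 0.826% for introns under 600 bp. For longer introns they were 4.56, 4.66, 2.62 and 1.62%. The difference was thus large only above 51% GC and went the other way under 45% GC. The bands of 45 to 48 and under 45% GC held only 113 and 121 genes with such short introns. In the band of the shortest introns, the median log2 fold change was −0.14 with all libraries, −0.07 without *Ccdc174-dTAG* replicate 2 and −0.24 without replicate 1.

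**Figure D3:**
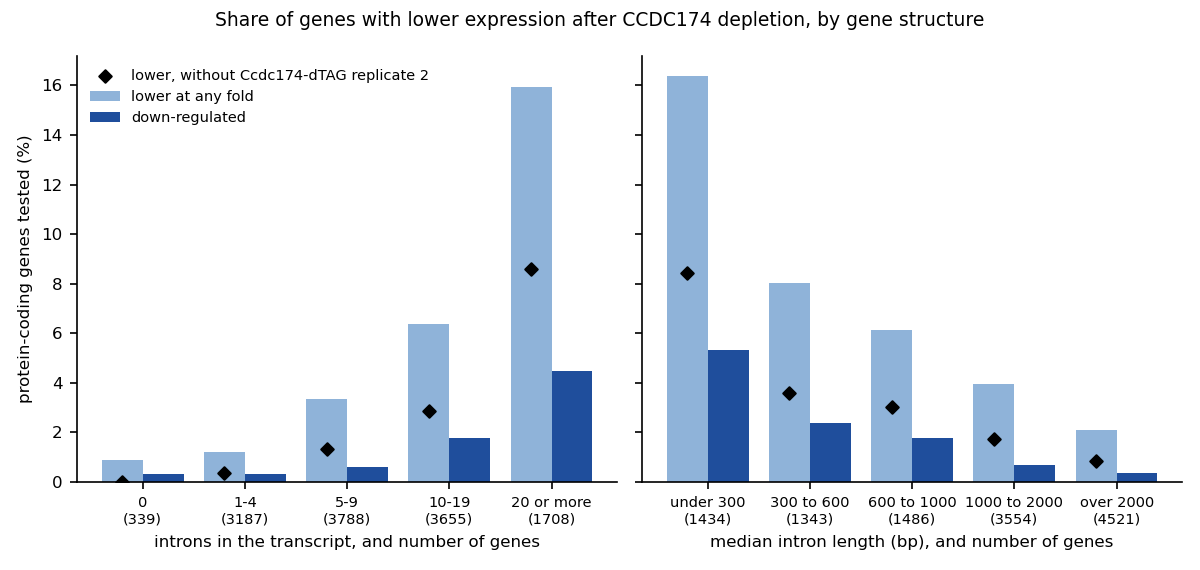
Share of protein-coding genes tested (vertical axis, %) with lower RNA at any fold (pale bars) and down-regulated (dark bars), by the number of introns (left) and by the median intron length in bp (right), with the number of genes in each band in parentheses. Diamonds give the share with lower RNA without *Ccdc174-dTAG* replicate 2, between 0 and 8.61%, and like the pale bars they rise with intron number and fall with intron length.

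The 5′SSs of the down-regulated genes shared fewer bases with CAGGTAAGT than those of all genes tested. Of their 3738 sites, 23.2% shared 5 or fewer bases against 16.4% of 135435 sites in all protein-coding genes tested, and 92.0% of the genes had at least 1 such site against 67.5%, which also follows from having more introns. In the up-regulated genes 22.3% of 175 sites shared 5 or fewer bases. In introns under 200 bp the share was 25.5% in the down-regulated genes and 21.95% in all genes tested. In introns of 1000 bp or more it was 16.9 and 13.6%, and in introns of lengths between these it was 25.9 and 19.2%. The difference was smaller than over all introns in the shortest and the longest introns, and about the same in those between. Of 6 positions compared, the largest difference was at the third base of the intron, where 45.9% of the sites had A against 60.6%. Short introns have fewer A at this position in all genes, with 49.0% in introns under 200 bp and 65.3% in introns of 1000 bp or more. Within these lengths the down-regulated genes had 38.0% and 58.1%. In introns of lengths between these, the down-regulated genes had 44.0% against 57.2% in all genes tested. The down-regulated genes here are those of the fit with all libraries, and the sites were not compared without *Ccdc174-dTAG* replicate 2. Introns of 1 gene are not independent of each other, so these shares are a description. The same holds for the GC content of introns, with medians of 52.8 and 45.4%.

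Of the 12 largest increases, 6 were in genes of the response that ATF4 controls. ATF4 is a transcription factor whose translation rises when the kinases of the integrated stress response phosphorylate eIF2α, for instance on amino acid shortage or with unfolded proteins in the endoplasmic reticulum. It induces other transcription factors, feedback genes and enzymes and carriers of amino acids, often through an element near the promoter. Of 23 regulators and effectors of this response that were tested, 10 were higher, against 1.11% of all genes tested, and 0 lower. This list, like the other gene lists below, was chosen with earlier results of these data known. Such shares are therefore a description and no test of enrichment. Of the 23, 7 were up-regulated and 22 had a log2 fold change above 0. The median was 0.81. The count lay between 8 and 15 over all settings tried, and the median fell to 0.45 without *Ccdc174-dTAG* replicate 1.

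*Chac1*, which degrades glutathione, rose most of all genes, from 2.58 and 1.98 normalised CPM in WT to 14.5 and 9.10 in *Ccdc174-dTAG* (log2 fold change 2.22, SE 0.25, adjusted p = 7.5e-06). *Nupr1*, a small stress-induced chromatin protein, rose from 13.7 and 11.7 to 52.5 and 42.6 (1.88, SE 0.18), and *Trib3*, a pseudokinase that restrains the response, from 12.04 and 8.61 to 38.6 and 30.4 (1.73, SE 0.15, adjusted p = 4.3e-07). In these genes every depleted library lay more than 2-fold above both WT libraries. *Ddit3*, which encodes CHOP, rose from 3.27 and 1.96 to 10.9 and 7.76 (1.76), and *Adm2*, a peptide hormone, from 0.266 and 0.402 to 2.12 and 1.45 (1.79). *Atf4* itself rose from 232 and 221 to 434 and 384, a 1.80-fold change (0.85, SE 0.12, adjusted p = 1.4e-04). *Vldlr*, a lipoprotein receptor that ATF4 induces, was at 2.13 and 3.89 against 6.85 and 10.6, and its adjusted p was 0.036 without WT replicate 1 and 0.033 without *Ccdc174-dTAG* replicate 2. *Atf3* (0.99), *Herpud1* (0.92) and *Cebpb* (1.28) were also higher, and *Cebpb* did not pass when any library was left out, with adjusted p between 0.0145 and 0.105.

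Of 25 enzymes and carriers of amino acids 4 were higher (*Slc1a4*, *Pck2*, *Gpt2* and *Slc7a5*), against 1.11% of all genes tested. In this list 0 were lower, and the median was 0.26. *Slc1a4*, a carrier of small neutral amino acids, rose from 11.4 and 16.2 to 28.8 and 32.1 normalised CPM (1.15, SE 0.15), and *Pck2*, the mitochondrial phosphoenolpyruvate carboxykinase, from 69.4 and 86.4 to 125 and 114 (0.63). *Asns*, asparagine synthetase, was at 1452 and 1570 against 1331 and 1470 (−0.11, adjusted p = 0.72). Only 1 member, *Slc1a4*, remained called without WT replicate 1. Of 21 cytosolic tRNA synthetases, many of which ATF4 can induce, 0 were higher and 4 lower, with a median of 0.00. Of all genes tested, 4.74% were lower. *Qars*, for glutamine, fell from 242 and 240 to 91.7 and 91.0 (−1.40, SE 0.08, adjusted p = 5.5e-09) and *Vars*, for valine, from 201 and 176 to 82.1 and 57.1 (−1.46). Both were down-regulated, while *Farsa* (−0.71) and *Mars* (−0.38) fell by less than 2-fold. Both lost the call without WT replicate 1 or without *Ccdc174-dTAG* replicate 2, and *Mars* also without WT replicate 2. *Qars* has 23 introns with a median of 120 bp and *Vars* 29 with 129 bp. Of 18 chaperones of the endoplasmic reticulum, which respond to unfolded proteins there, 0 were higher and *Hyou1* was lower (−0.40), a call lost when any library was left out, with a median of −0.08. Of 16 targets of the heat shock and oxidative stress responses, 0 were called.

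Promoters of these genes were searched for the ATF4 composite element, written TGATGNAA, on both strands, in 250 bases before and 50 after the start in the RefSeq table (GRCm38.p6). It was present in 6 of the 23 up-regulated genes with a promoter in the table (26.1%), in 2 of 136 down-regulated genes (1.47%) and in 267 of 10335 genes tested (2.58%). It was present in 3.97% of all 32851 promoters. A gene was counted when any of its promoters held the element, which gives genes with several promoters more chances. *Bdnf*, an up-regulated gene with several promoters, held it in 1 of them, and its stretch is not shown. The element was also found in genes that did not rise, among them *Asns* and 5 of the 13 cytosolic tRNA synthetases with a promoter in the table (38.5%), a list with 0 higher genes. The stretches below are shown because they hold the element in genes that rose, on the strand of the gene, with the element in capitals, where it reads TTNCATCA.
*Chac1*, chr2:119351038-119351067, plus strand: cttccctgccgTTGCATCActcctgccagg
*Nupr1*, chr7:126625562-126625591, minus strand: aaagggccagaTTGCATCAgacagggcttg
*Trib3*, chr2:152344028-152344057, minus strand: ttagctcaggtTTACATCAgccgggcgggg
*Vldlr*, chr19:27216809-27216838, plus strand: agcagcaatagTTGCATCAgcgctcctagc
*Slc1a4*, chr11:20332699-20332728, minus strand: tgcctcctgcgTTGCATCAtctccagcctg
*Atf3*, chr1:191183425-191183454, minus strand: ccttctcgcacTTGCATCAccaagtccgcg
*Herpud1*, chr8:94386306-94386335, plus strand: accacggcgggTTGCATCAgcccgcacccc
*Pck2*, chr14:55540152-55540181, plus strand: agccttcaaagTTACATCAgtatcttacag
The element was not found in the windows of *Adm2*, *Ddit3*, *Cebpb* and *Ubap1l*. A match is a description of the letters, not evidence of binding.

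Other genes among the 12 largest increases are not members of that list. *Hoxb9*, a posterior homeobox gene, rose from 1.68 and 2.01 to 6.80 and 6.37 normalised CPM (1.71, SE 0.19, adjusted p = 8.6e-06). *Ubap1l*, which resembles a subunit of the endosomal sorting machinery, rose from 1.70 and 1.85 to 7.17 and 5.24 (1.66). *Castor2*, related to the arginine sensor of mTORC1, was at 1.51 and 1.31 against 3.90 and 4.34, and *Tll1*, a secreted metalloprotease, at 0.718 and 0.912 against 2.10 and 2.74. *Trim62*, an E3 ligase, and *Gm13889*, an uncharacterised gene, rested on the lowest levels, with 0.214 to 0.505 normalised CPM in WT. Of these, *Hoxb9* and *Ubap1l* kept the call without each library, *Castor2* lost it whichever was left out (adjusted p between 0.016 and 0.047), and *Tll1*, *Trim62* and *Gm13889* lost it without at least 1.

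**Figure D4:**
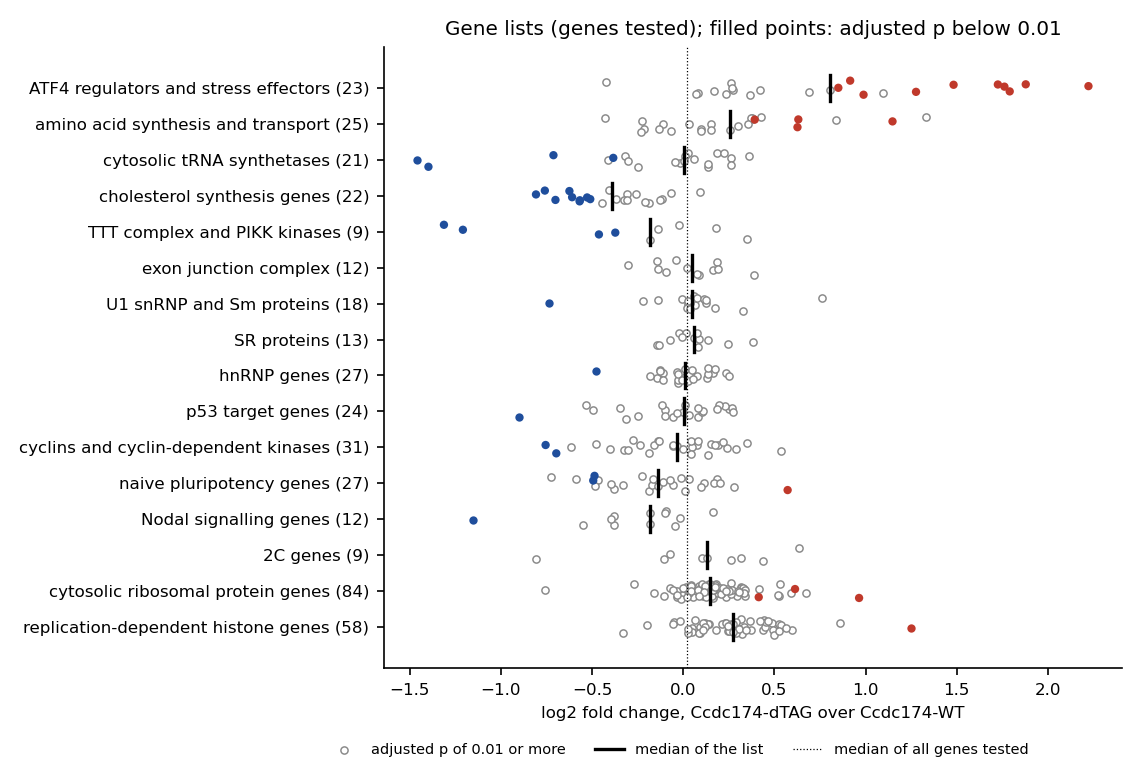
Log2 fold change of *Ccdc174-dTAG* over WT (horizontal axis) for the tested members of 16 gene lists (rows, with the number tested), where filled red and blue points are genes past the adjusted p of 0.01 and open points are not. The bar is the median of the list and the dotted line the median of all genes tested (0.02), and the ATF4 list (0.81) and the cholesterol list (−0.39) lie farthest from it.

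Cholesterol synthesis genes, which the transcription factor SREBP2 controls through sterol feedback, were shifted down. Of 22 tested, 9 were lower, against 4.74% of all genes tested, and 0 higher. Of the 22, 21 had a log2 fold change below 0, and the median was −0.39. *Fdft1*, which makes squalene, fell from 130 and 128 to 87.8 and 81.6 normalised CPM (−0.61, SE 0.10, adjusted p = 3.7e-04), and *Pmvk*, phosphomevalonate kinase, from 59.3 and 55.6 to 32.2 and 33.1 (−0.81). None reached 2-fold. The number of lower genes was 2 without WT replicate 1, 4 without WT replicate 2, 5 without *Ccdc174-dTAG* replicate 1, 3 without replicate 2 and 3 with CPM as deposited, while the median of the list was between −0.34 and −0.46 in these fits.

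The kinases that depend on the TTT complex were examined beside *Tti1*. Of 9 members of the complex and the PI3K-related kinases, 4 were lower, against 4.74% of all genes tested, and the median was −0.18. *Trrap*, the kinase-like subunit of histone acetyltransferase complexes, fell from 193 and 160 to 80.2 and 71.6 normalised CPM (−1.21, SE 0.14, adjusted p = 1.7e-05). *Atm* (−0.46) and *Prkdc* (−0.37), kinases of the DNA damage response, were lower by less and did not pass when any library was left out. *Mtor* (−0.18), *Smg1* (−0.14), *Telo2* (−0.02) and *Tti2* (0.35) did not pass. Of 31 cyclins and cyclin-dependent kinases, *Cdk2* and *Cdk16* (−0.70) were lower and 0 higher. Of 24 p53 target genes, 0 were higher, and *Ddb2*, a DNA damage sensor, was lower (−0.90), with adjusted p of 0.032 without WT replicate 2 and 0.023 without *Ccdc174-dTAG* replicate 1.

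RNA processing genes mostly stayed within the spread, and of all genes tested 1.11% were higher and 4.74% lower. None of 12 genes of the exon junction complex, 13 SR proteins and 13 exosome genes passed the test, with medians of 0.05, 0.06 and 0.05 and extremes of −0.30 and 0.39. Of 18 genes of the U1 particle and the Sm proteins, *Prpf40b*, a U1-associated protein, was lower (18.1 and 16.6 against 11.02 and 9.63 normalised CPM, −0.74), and of 27 hnRNP genes *Raly* was lower (−0.48). *Prpf40b* lost the call without WT replicate 1 or *Ccdc174-dTAG* replicate 2, and *Raly* without any of the libraries but *Ccdc174-dTAG* replicate 1. Of 12 NMD factors, *Smg6*, the endonuclease of the pathway, was higher (112 and 110 against 149 and 148, 0.42), a call lost in all but the setting without *Ccdc174-dTAG* replicate 1 among those that left out a library. Of 12 noncoding hosts of small nucleolar RNAs, whose spliced RNA is often degraded by NMD, *Snhg8* (0.74) and *Snhg6* (0.44) were higher, and neither was called without WT replicate 1, WT replicate 2 or *Ccdc174-dTAG* replicate 2.

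Among genes of mESC identity few were called, in both directions, and of all genes tested 1.11% were higher and 4.74% lower. Of 27 naive pluripotency genes, *Klf4* was higher (159 and 142 against 242 and 206 normalised CPM, 0.57, SE 0.10), *Tfcp2l1* (−0.49) and *Stat3* (−0.49) were lower, and the median was −0.14. *Tfcp2l1* did not pass when any library was left out, *Stat3* not without WT replicate 1 or *Ccdc174-dTAG* replicate 2, and *Klf4* not without WT replicate 2 or *Ccdc174-dTAG* replicate 1. Of 12 Nodal signalling genes, *Lefty2*, a feedback inhibitor of Nodal, was down-regulated, from 748 and 632 to 324 and 294 (−1.16, SE 0.20, adjusted p = 8.0e-04). The adjusted p of *Lefty2* was 0.021 without WT replicate 1 and 0.016 without *Ccdc174-dTAG* replicate 2. In the Nodal list 11 of 12 genes had a log2 fold change below 0, with a median of −0.18. Of 8 DNA methylation enzymes, *Dnmt1* alone was called. Of 8 Wnt targets, 10 primed and germ layer genes, 12 ERK targets and 21 genes of glycolysis and hypoxia, 0 were called. Of 28 genes of the two-cell-like (2C) state only 9 were tested, so most of this list was not assessed. The 9 summed to 14.1 to 21.8 normalised CPM in a library and 0 were called. Their median of 0.13 was −0.38 without *Ccdc174-dTAG* replicate 2. *Zscan4d*, the best known 2C transcript, had 1.04 and 1.26 against 1.32 and 2.74 (0.63, adjusted p = 0.37), and members of its family share sequence, so the value is uncertain.

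Markers of other cell types were low. The 5 trophectoderm markers tested summed to 57.0 to 75.5 normalised CPM, and 0 were called. Of 4 primitive endoderm markers, *Gata4* was higher, with 2.499 and 2.493 against 4.165 and 4.025 (0.66), a call lost when any library was left out, and their sum was 6.49 and 6.73 in WT and 7.95 and 8.52 in *Ccdc174-dTAG*. In bulk RNA, a different share of cells of a type and a different level per cell cannot be told apart.

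Ribosomal protein genes shifted up slightly, with 72 of 84 above 0, a median of 0.15 and 3 higher genes, *Rpl9* (0.96), *Rpl10a* (0.61) and *Rps18* (0.41). Of the 3, *Rpl9* kept the call without each library. Copies of ribosomal protein and histone genes share sequence, and only uniquely mapping reads were counted, so these values are uncertain. Replication-dependent histone genes had a median of 0.27, with 53 of 58 above 0 and 1 up-regulated gene, *Hist1h2aa* (1.25), which lost the call whichever library was left out (adjusted p between 0.017 and 0.110). The histone median was −0.25 without *Ccdc174-dTAG* replicate 1 and 0.75 without replicate 2, so that the direction rested on replicate 1. None of 9 mitochondrially encoded genes was called, with a median of −0.13 that was 0.12 without *Ccdc174-dTAG* replicate 2 and 0.19 without WT replicate 1.

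The same contrast was measured in 4 other libraries, after 4 h with CHX. Of the 175 down-regulated genes, 173 (98.9%) were below 0 there as well, against 48.3% of the 14096 genes with a value, and 101 passed the adjusted p of 0.01 with the same sign, as 345 of all genes with a value did (2.45%). With CHX their median was −0.79, against −1.18 without, the latter from the contrast that selected the genes. Of the 33 up-regulated genes, 31 were above 0 with CHX and 5 passed, against 69 of all genes with a value that were higher there (0.49%). Their median was 0.71 with CHX and 1.25 without. *Hoxb9* was at 1.81 with CHX, *Chac1* was at 0.52 with an adjusted p of 0.135, and *Slc1a4* was at −0.42. *Trap1* was at −1.07 and *Tti1* at −0.49 with CHX, and *Trh*, *Lamb2*, *Cad* and *Cdk2* at −2.24, −1.80, −1.58 and −0.74. The difference of the effects was tested as an interaction in the 8 libraries. By limma 0 of 15034 genes (0%) were called, with 1375 at an unadjusted p below 0.05 and a smallest adjusted p of 0.0152. Of the 175 down-regulated genes 91, and of the 33 up-regulated genes 16, were at an unadjusted p below 0.05, against 1275 of the 14096. These genes were chosen in the contrast without CHX, which favours such differences. The 0 calls do not show that the effects with and without CHX were equal. With 8 further libraries of the *Nrde2* experiment in the fit, 38 genes were called. Across the 208 genes the log2 fold changes correlated with Pearson's r of 0.863 and Spearman's rho of 0.646, a description across genes that were chosen in one of the 2 contrasts.

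Loss of NRDE2 was compared because the study examined both proteins at the same splice sites. No library is shared between the *Ccdc174* and *Nrde2* contrasts. Of the 175 genes down-regulated in *Ccdc174-dTAG*, 170 (97.1%) had a log2 fold change below 0 in each of the 2 *Nrde2*-KO experiments, and 134 passed the adjusted p of 0.01 in both with that sign, against 1190 of the 14255 genes tested that did so (8.35%). Their median was −1.02 and −1.16 in the *Nrde2*-KO experiments and −1.18 in *Ccdc174-dTAG*. The mean log2 fold change of both *Nrde2*-KO experiments was −1.92 in *Trap1*, −1.69 in *Lamb2*, −1.49 in *Tti1* and −0.63 in *Cdk2*, beside −1.76, −1.87, −1.31 and −0.76 in *Ccdc174-dTAG*.

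The difference between the effects was tested for every gene and passed the adjusted p of 0.01 for 391 (2.74%). Among the down-regulated genes, 10 of 175 differed, 8 of them lower in *Ccdc174-dTAG*, the contrast that selected the genes, among which *Cttnbp2* had −1.73 against −0.19 in *Nrde2*-KO and *Ptgs1* −1.72 against −0.05. *Myh13*, *Slc6a8*, *Srarp*, *Gbp4* and *Akr1cl* were also among the 8, and *Nipsnap1* and *Nt5dc2* were lowered less than in *Nrde2*-KO. These 7 genes are named because they passed, not by the rule for named genes. A difference that misses the threshold does not show equal effects.

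Of the 33 up-regulated genes, 21 (63.6%) and 28 (84.85%) were above 0 in the first and second *Nrde2*-KO experiment, with medians of 0.31 and 0.55. Of all genes tested, 52.3 and 50.9% were below 0 there. The difference was called in 11 of the 33, all higher in *Ccdc174-dTAG*. That direction follows largely from choosing the genes for their rise in this contrast. Over all genes the difference was higher in 204 and lower in 187. *Chac1* (2.22 against −0.41), *Adm2* (1.79 against −0.36), *Nupr1* (1.88 against 0.18), *Trib3* (1.73 against −0.07), *Ddit3* (1.76 against 0.21), *Vldlr* (1.48 against −0.19), *Slc1a4* (1.15 against −0.14), *Ubap1l* (1.66 against −0.66) and *Tll1* (1.32 against −0.05) were among them, with *Col26a1* and *Mef2b*, which are named because they passed. *Hoxb9* had 1.71 against 1.48. The ATF4 list had medians of −0.22 and 0.16 in the *Nrde2*-KO experiments beside 0.81 in *Ccdc174-dTAG*, and the cholesterol list −1.12 and −1.16 beside −0.39, with the difference called for *Cyp51*, *Nsdhl*, *Fdft1*, *Pmvk* and *Fdps* among the lower genes of that list. *Zscan4d* had a mean of 3.60 in *Nrde2*-KO and 0.63 in *Ccdc174-dTAG*, a difference with an adjusted p of 0.0022. With the first or the second *Nrde2*-KO experiment alone, the difference was called for 240 and 116 genes.

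**Figure D5:**
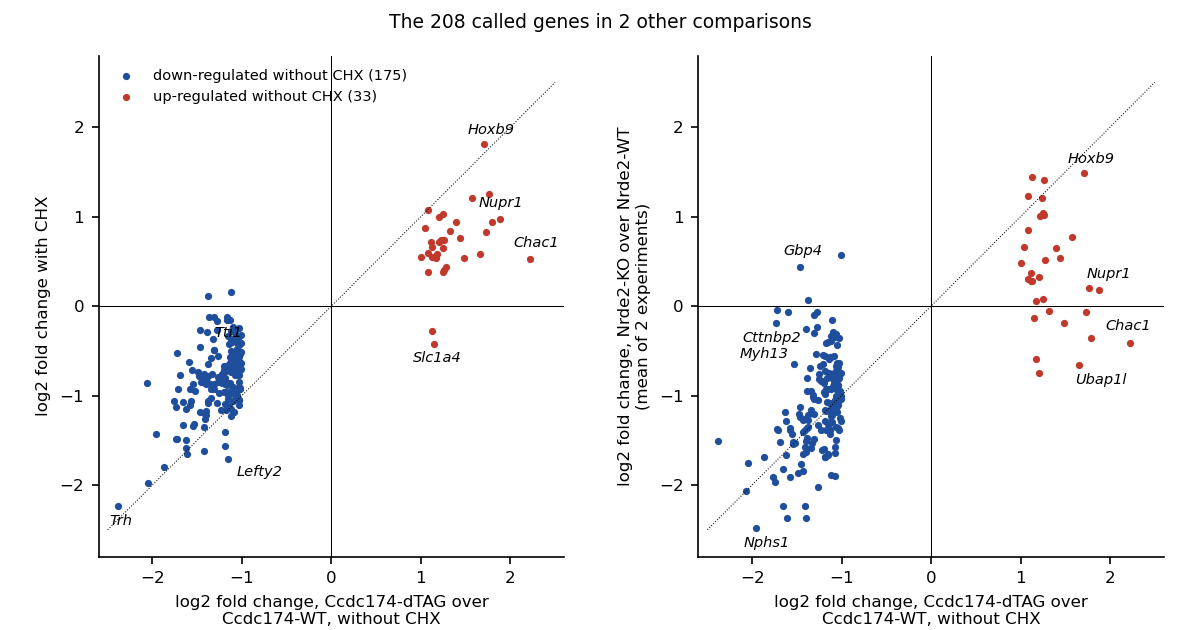
Log2 fold change of the 208 up- or down-regulated genes without CHX (horizontal axes) against that of the same groups with CHX (left) and the mean of 2 *Nrde2*-KO experiments (right), blue for down-regulated and red for up-regulated genes, with the dotted line marking equal change. Nearly all blue points lie below 0 in both panels. Some red points, such as *Chac1* and *Ubap1l*, lie below 0 in *Nrde2*-KO cells, and *Hoxb9* lies near the line in both panels.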

How the data were processed

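RNA-seq libraries were made by the study's authors from total RNA depleted of ribosomal RNA with a stranded kit. Per the study's methods, the authors aligned 50-nt single-end reads to mm10 (STAR 2.7.3a) and assigned them to GENCODE genes with featureCounts, by strand and only where they mapped uniquely. The deposited values are CPM of 55335 genes. Multiplied by the library's total, 100% of the CPM fell within 0.1 of whole reads, and these recovered reads served edgeR and DESeq2 as alternatives. All columns of the RNA-seq table were used (0 belonged to no sample), and the other deposited tables of the series were not used here. No libraries of a group agreed within sampling noise (chi-square per degree of freedom of 10.0 to 42.9), so none were merged.

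Normalised CPM are the CPM over each library's median-of-ratios factor. On the scale of log2(normalised CPM + 0.25), limma 3.58.1 (R 4.3.3) with a mean-variance trend was fitted to the 20 RNA-seq libraries without CHX (10 groups of 2), which share 1 estimate of the spread, with Benjamini-Hochberg adjustment over the genes tested. Because 0.25 was added, fold changes of genes of low CPM are understated. At this depth 0.5 CPM is under 20 reads, and such genes are imprecise. CHX values came from a fit of the 8 *Ccdc174* libraries, in which 159 of the genes were not fitted. Gene names and introns (the APPRIS principal transcript) came from GENCODE M21 of GRCm38, whereas the authors used a later release of the same build; 55154 identifiers were named and 181 were not.

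The members and gene lists were chosen with earlier results of these data known. Named genes were 7 fixed genes, the 12 largest increases and 16 largest decreases without overlap of the groups and with at least 1 CPM in the higher group, and from each list up to 4 members with the smallest adjusted p and any that were up- or down-regulated. Some of these genes are not reported here. Lists were described by counts and medians, without set tests. The scripts were tested on simulated data. Alternatives were other added values, filters, scalings, libraries, tests, a replicate block, and leaving out each library (limma 3.58.1, edgeR 4.0.16 quasi-likelihood, DESeq2 1.42.0).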

Additional observations from a re-analysis of the deposited data

How the results depend on the processing

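The 175 down-regulated genes kept their number within 1.5-fold in all settings but 1, with counts of 98 to 210 when 1 library was left out (98 without *Ccdc174-dTAG* replicate 2, of which 91 were among the 175). The 33 up-regulated genes had lower levels (for protein-coding genes a median of 1.22 normalised CPM in WT, against 26.1 for the down-regulated), and their number was 14 with 1 added in place of 0.25, 18 with no filter, 18 with only the 4 libraries in the fit, and 14 to 29 when 1 library was left out, of which 11 to 15 were among the 33. The 158 genes higher at any fold were 99 with no filter, 96 with CPM as deposited, 36 with only the 4 libraries, 347 with DESeq2, 285 with the GC trend removed (added after seeing the data) and 36 to 142 when 1 library was left out. The 676 lower genes were 438 with only the 4 libraries and 311 to 592 when 1 library was left out. edgeR called 182 down-regulated and 34 up-regulated genes (171 and 30 shared with limma) and DESeq2 188 and 34 (167 and 24 shared). With the replicate number as a block in the 4 libraries, 48 genes were up-regulated, 214 down-regulated, 869 higher and 1737 lower at any fold. The deviations of same-numbered libraries from their group means correlated at 0.373 over 14255 genes, but 2 pairs cannot show that the numbers pair the samples. The difference from *Nrde2*-KO was called for 240 and 116 genes with 1 experiment in place of 391, and that with CHX for 38 with 16 libraries in place of 0. No called gene among those named changed sign under any of these settings. DESeq2 gave no adjusted p for *Adm2* and *Trim62*. With 1 library left out, the lone library of a group was assumed to vary like the other groups. The causes were not tested. Depth limits mainly the genes near 0.5 CPM.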

Other observations

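A few transcripts with a large mean difference were not called, and in these 1 *Ccdc174-dTAG* library stood apart from the other. *Gm15564* was at 110 and 95.1 normalised CPM in WT and at 73.6 and 6.03 in *Ccdc174-dTAG*, and *Lars2*, a mitochondrial leucyl-tRNA synthetase, at 429 and 349 against 262 and 42.0. *Gm23935* was at 9.44 and 5.84 in WT and at 144 and 5.13 in *Ccdc174-dTAG*, so that here replicate 1 was the library apart. These genes were chosen after their values were seen, and what the libraries differed in was not tested.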
